A study of Mus musculus with 7 samples.

Results

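The zinc-handling genes of the liver were examined in mice lacking TET1, a dioxygenase that oxidizes 5-methylcytosine in DNA. The set comprised 9 genes chosen by symbol, among them the metallothioneins Mt1 and Mt2 and the zinc-sensing transcription factor Mtf1. The others were the transporters Slc30a1 and Slc30a10 of the ZnT family and Slc39a4, Slc39a5, Slc39a8 and Slc39a14 of the ZIP family. All 9 were found among the 51426 genes of the count tables, and all 9 had enough counts to be among the 14754 genes tested. Livers came from 3 WT and 4 TET1 KO male mice, labelled as C57BL/6J. The TET1 KO mice lacked Tet1 in the whole body, and every mouse of both groups was fed a high-fat diet (HFD) for 16 weeks, which the study's methods start at 8 weeks of age. The labels call the mice whole-body knockouts, and the study writes the sequenced line as TET1-/-, apart from its other whole-body line, made with Cre under the actin promoter. The methods give the purchased TET1 KO stock as B6;129S4-Tet1tm1.1Jae/J, a mixed background, and state a backcross only for the floxed and Cre lines. The deletion was present in all tissues, so liver-intrinsic and systemic effects cannot be told apart. No livers on normal chow were analysed here.

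Metallothioneins are small cysteine-rich proteins that bind zinc and copper ions and buffer their free concentration in the cytosol. When free zinc rises, the transcription factor MTF1 binds metal response elements (MREs) in the promoters of the metallothioneins and of Slc30a1 and activates them, and glucocorticoids and interleukin-6 raise hepatic metallothionein mRNA through other elements. Transporters of the SLC30 (ZnT) family move zinc out of the cytosol and those of the SLC39 (ZIP) family move it in, while SLC30A10, SLC39A8 and SLC39A14 also carry manganese.

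Promoter sequences are shown for Mt1, Mt2, Slc30a1 and Slc30a10 because these members held the most matches to the MRE core near their start sites. Sequences and coordinates are those of RefSeq on GRCm38.p6, the mouse build of the deposited counts. Each run holds the 250 bases before the start that the RefSeq promoter table gives, on the gene's strand, and capitals mark the matches to TGCACNC or TGCGCNC on either strand. The runs are chr8:94178839-94179088 for Mt1, chr8:94172368-94172617 for Mt2, chr1:191906531-191906780 for Slc30a1 and chr1:185454598-185454847 for Slc30a10, all on the plus strand. That start is the first base of the gene for Mt2 and Slc30a10, but lies 206 bases inside the annotated gene for Mt1 and 84 bases inside it for Slc30a1, so part of those runs falls within the annotated gene. Matches that lay after the annotated start are shown as short runs of at most 30 bases, at chr8:94179089-94179117 for Mt1, chr8:94172618-94172633 for Mt2 and chr1:191906806-191906822 for Slc30a1.
Mt1 before the start: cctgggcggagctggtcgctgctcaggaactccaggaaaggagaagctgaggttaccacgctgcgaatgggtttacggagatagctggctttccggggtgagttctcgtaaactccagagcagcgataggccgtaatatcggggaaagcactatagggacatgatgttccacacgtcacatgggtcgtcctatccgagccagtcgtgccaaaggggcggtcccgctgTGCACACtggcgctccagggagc
Mt1 after the start: tcTGCACTCcgcccgaaaagTGCGCTCgg
Mt2 before the start: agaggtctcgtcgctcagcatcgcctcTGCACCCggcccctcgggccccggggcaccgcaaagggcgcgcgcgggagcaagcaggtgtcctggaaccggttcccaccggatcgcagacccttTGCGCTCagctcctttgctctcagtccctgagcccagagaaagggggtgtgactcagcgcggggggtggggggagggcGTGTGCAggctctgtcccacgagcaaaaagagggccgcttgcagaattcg
Mt2 after the start: ggtcGTGCGCAggccc
Slc30a1 before the start: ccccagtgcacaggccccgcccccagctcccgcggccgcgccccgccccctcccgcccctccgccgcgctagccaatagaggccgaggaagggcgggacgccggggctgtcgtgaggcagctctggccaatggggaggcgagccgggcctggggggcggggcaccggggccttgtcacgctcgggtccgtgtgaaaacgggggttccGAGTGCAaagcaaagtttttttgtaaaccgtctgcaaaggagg
Slc30a1 after the start: gggccGAGCGCAgtcgc
Slc30a10 before the start: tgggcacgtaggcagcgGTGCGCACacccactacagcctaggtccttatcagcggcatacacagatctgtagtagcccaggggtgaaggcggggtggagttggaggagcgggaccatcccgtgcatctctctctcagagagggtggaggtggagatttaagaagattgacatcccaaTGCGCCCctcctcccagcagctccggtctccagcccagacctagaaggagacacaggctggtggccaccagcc

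Windows from 250 bases before to 50 bases after a start were given for 7 of the 9 members, with a pair of starts each for Slc39a5 and Slc39a8. Slc39a4 and Slc39a14 had no entry. The MRE core matched 4 times around the start of Mt2, 3 times around that of Mt1, 3 times around that of Slc30a10 and 2 times around that of Slc30a1. In Slc30a10, 2 of the 3 matches overlapped on opposite strands, offset by 1 base. Slc39a5 and Slc39a8 each had 1 match at 1 of their starts, and the Mtf1 window had none of these letters. Of all 32851 windows of this length, 25.7% held at least 1 match, 7.11% at least 2 and 1.97% at least 3. The antioxidant response element (ARE) TGACNNNGC, the binding motif of NRF2, matched once for Mt2, once for Slc30a1, 2 times at 1 start of Slc39a5 and once at 1 start of Slc39a8, against at least 1 match in 12.4% of all windows. A match describes the letters of the window and not a bound site, and start sites were not measured in these data. The numbers of matches, and their place before or after a start, therefore hold only for the starts given and for these windows.

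**Figure D1:**
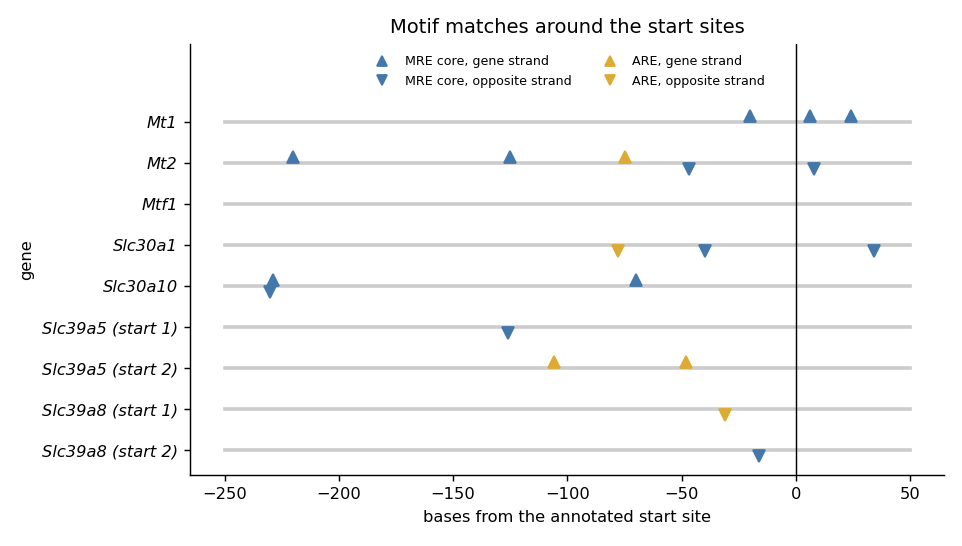
Positions of MRE core matches (blue) and ARE matches (yellow) for the 9 windows of 7 members, on an axis of bases from the annotated start site, with triangles pointing up for the gene's strand and down for the opposite strand. Mt2 has 4 MRE core matches, Mt1 and Slc30a10 have 3 each, and Mtf1 has none.

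Library totals ranged from 15005277 to 22746138 counts assigned to genes. For Tet1 itself the tables list 1, 4 and 1 counts (WT) and 2, 1, 4 and 1 counts (TET1 KO). These counts are too few to check the genotype labels (p = 0.743, exact permutation test, two-sided, over the 35 splits of the livers). Of 8 hepatocyte markers, 7 were listed by symbol, and their summed level was 69809 to 89573 CPM (counts per 1000000 library counts after TMM scaling) in WT livers and 82420 to 92855 CPM in TET1 KO livers. Among them edgeR's quasi-likelihood test called 0, with 1 at an unadjusted p under 0.05, and DESeq2 called 1. This gene, Apoa1, was higher in every TET1 KO liver (log2 fold change 1.10, adjusted p 0.0818 in edgeR and 2.34e-06 in DESeq2). Levels are from whole liver, in which fewer cells of a type and less RNA per cell cannot be told apart. The labels number the samples as replicates, so p-values measure the spread between these samples, and no pair within a group agreed within sampling noise.

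None of the 9 members passed an adjusted p of 0.05 in edgeR's quasi-likelihood test with Benjamini-Hochberg adjustment over all genes tested, against 2.02% of all genes (1.15% lower and 0.874% higher in TET1 KO). When libraries were scaled by size only, 1 member passed, and the share of higher genes among all calls was 25.5% in place of 43.3%. DESeq2 called 1 member, Mt2, against 9.88% of the genes it tested. At an unadjusted p under 0.05 the edgeR test gave 5 of 9 members (Mt1, Mt2, Slc30a1, Slc39a5 and Slc39a8), against 26.3% of all genes. Slc39a5, counted among the 5, passed the filter on low counts through the WT livers, where it is high, so its test is not given as support. The fitted log2 fold change, TET1 KO minus WT, was negative for 8 of 9 members against 48.9% of all genes, and its median was -0.42 over the members and 0.01 over all genes. The groups did not overlap for 2 of the 9 members, Mt2 and Slc39a8, a share near that of all genes, of which 22.5% had groups that did not overlap. Both members were lower in every TET1 KO liver, as were 10.8% of all genes.

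**Figure D2:**
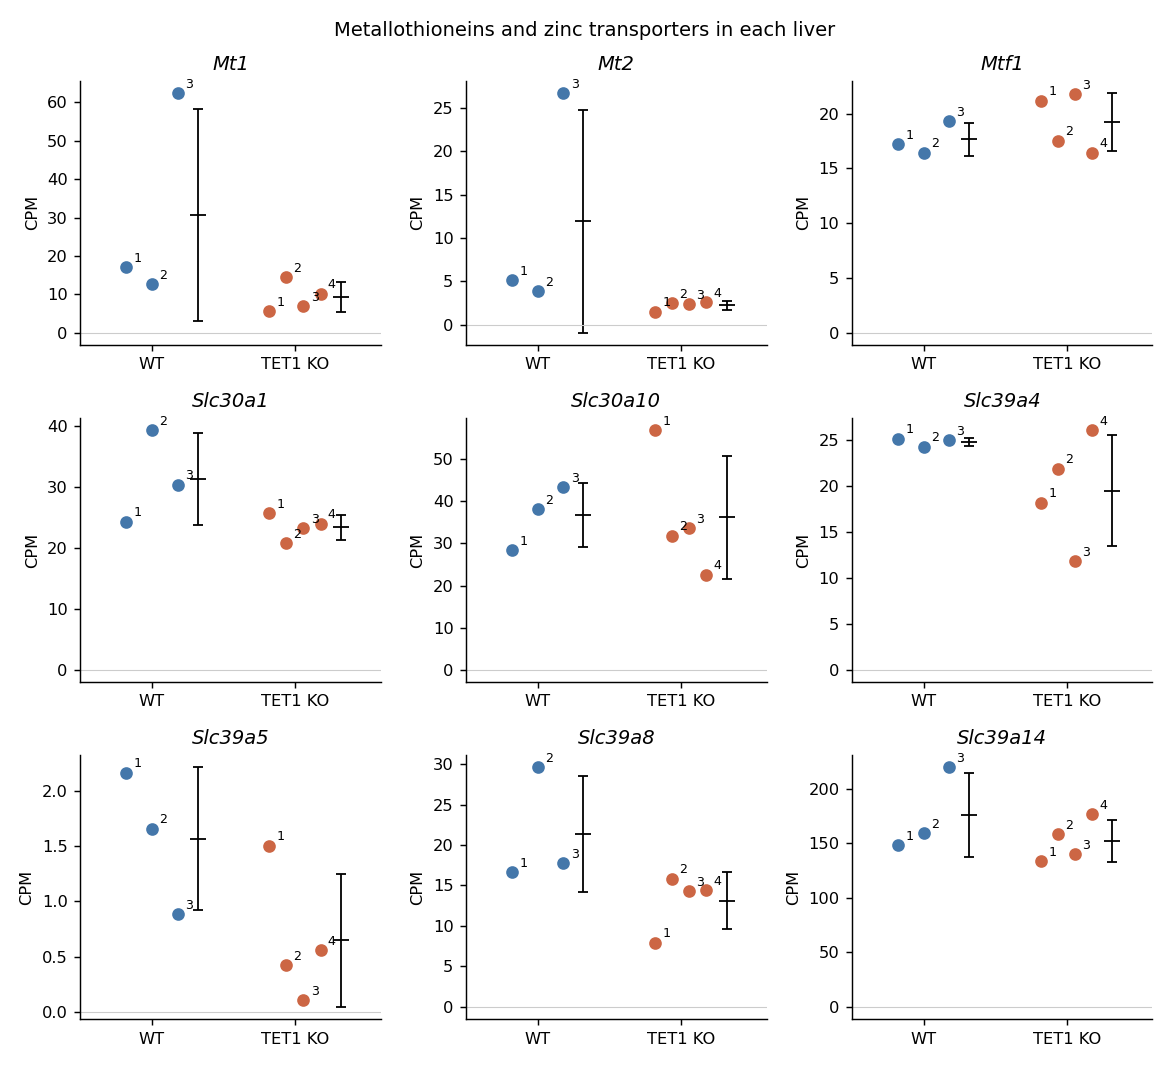
CPM of each of the 9 genes in each liver (points, numbered by replicate) for WT (blue) and TET1 KO (orange), with the mean and SD of each group as a black bar. WT replicate 3 stands at 62.5 CPM for Mt1 and 26.7 CPM for Mt2, above the other 6 livers.

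Metallothionein mRNA was lower on average in the TET1 KO livers, but 1 WT liver held most of the WT mean. Mt2 (ENSMUSG00000031762, chr8:94172618-94173567) and Mt1 (ENSMUSG00000031765, chr8:94178883-94180327) lie 5315 bases apart on the plus strand of chromosome 8. They encode the metallothioneins that the liver makes in quantity. Mt1 measured 17.0, 12.6 and 62.5 CPM in WT replicates 1, 2 and 3 and 5.64, 14.5, 6.96 and 10.2 CPM in TET1 KO replicates 1, 2, 3 and 4. WT replicate 3 stood far above all other livers, and TET1 KO replicate 2 lay within the range of the other WT livers, so the groups overlapped. The means were 30.7 ± 27.6 CPM (SD, n = 3) in WT and 9.32 ± 3.95 CPM (SD, n = 4) in TET1 KO. The log2 fold change was -1.72 (SE 0.50, 95% confidence interval -2.81 to -0.63), with an adjusted p of 0.0798 in edgeR's quasi-likelihood test and 0.0787 in DESeq2. An exact two-sided permutation test of the means gave p = 0.0571, where 35 splits allow no p under 0.0286.

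Mt2 measured 5.17, 3.90 and 26.7 CPM in the WT livers and 1.50, 2.47, 2.40 and 2.60 CPM in the TET1 KO livers. Every TET1 KO liver was below every WT liver, and the TET1 KO values lay close together. The means were 11.9 ± 12.8 CPM (SD, n = 3) and 2.24 ± 0.4997 CPM (SD, n = 4), with a log2 fold change of -2.39 (SE 0.58, 95% confidence interval -3.66 to -1.12). The adjusted p was 0.0590 in edgeR's quasi-likelihood test and 0.0218 in DESeq2, and the exact two-sided permutation test gave p = 0.0286, the smallest it can give. By unadjusted p, Mt2 ranked 419 and Mt1 980 of the 14754 genes. The spread of log2 CPM among livers of the same group was larger than that of 97.6% of genes for Mt1 and 98.4% for Mt2.

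The size of both differences rested on WT replicate 3, whose level was 3.67 times the next WT liver for Mt1 and 5.17 times for Mt2. Without that liver the log2 fold change was -0.69 for Mt1 (adjusted p 0.247, edgeR's quasi-likelihood test) and -1.02 for Mt2 (adjusted p 0.0992). DESeq2 without it gave -1.03 for Mt2 with an adjusted p of 0.0595, and called none of the 9 members. Without WT replicate 1, the fold change of Mt2 was -2.76, with an adjusted p of 0.0477 in edgeR's test. The sum of both metallothioneins was 22.2, 16.5 and 89.2 CPM in the WT livers and 7.14, 17.0, 9.36 and 12.8 CPM in the TET1 KO livers. TET1 KO replicate 2 exceeded WT replicate 2 in this sum. The ratio of Mt1 to Mt2 CPM was 3.30, 3.24 and 2.34 in WT and 3.75, 5.89, 2.89 and 3.91 in TET1 KO, so the ratios overlapped between the groups. The proteins are alike in sequence, and how the counting treated reads that fit both genes is not given in the sources used here.

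Of the other metallothioneins, Mt3, known from brain, had at most 1 count in any liver, and Mt4, known from stratified epithelia, had 0 counts in all 7. Both lie beside Mt2 and Mt1 on chromosome 8 and were not tested.

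Mtf1 (ENSMUSG00000028890, chr4:124802549-124849800) encodes the zinc-sensing activator of the metallothioneins. Its level was 17.2, 16.4 and 19.3 CPM in WT and 21.2, 17.5, 21.8 and 16.4 CPM in TET1 KO. TET1 KO replicates 1 and 3 were above every WT liver, and replicates 2 and 4 lay within the WT range. The means were 17.7 ± 1.50 (SD, n = 3) and 19.2 ± 2.65 CPM (SD, n = 4). The log2 fold change was 0.12 (SE 0.15, adjusted p 0.618 in edgeR's quasi-likelihood test), with a 95% confidence interval of -0.21 to 0.45. The sum of Mt1 and Mt2 divided by Mtf1 was 1.29, 1.01 and 4.62 in WT and 0.337, 0.968, 0.430 and 0.777 in TET1 KO. Every TET1 KO ratio was below every WT ratio, but TET1 KO replicate 2 (0.968) and WT replicate 2 (1.01) were close. In the sum alone TET1 KO replicate 2 (17.0 CPM) was above WT replicate 2 (16.5 CPM), and its Mtf1 level was higher as well. Of all single genes, 10.8% had every TET1 KO liver below every WT liver in CPM. WT replicate 3 again had the highest ratio.

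Slc30a1 (ENSMUSG00000037434, chr1:191906697-191913248) encodes ZnT1, the zinc exporter of the plasma membrane and a target of MTF1. It measured 24.3, 39.3 and 30.3 CPM in WT and 25.6, 20.7, 23.2 and 23.9 CPM in TET1 KO. The groups overlapped only through WT replicate 1, which was below TET1 KO replicate 1, and the highest liver was WT replicate 2. The means were 31.3 ± 7.54 (SD, n = 3) and 23.4 ± 2.04 CPM (SD, n = 4), and the log2 fold change was -0.42 (SE 0.17, adjusted p 0.148 in edgeR's quasi-likelihood test). Without WT replicate 2 it was -0.23, with an adjusted p of 0.508 in the same test.

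Slc30a10 (ENSMUSG00000026614, chr1:185454848-185468762) encodes ZnT10, which exports manganese. It measured 28.4, 38.2 and 43.4 CPM in WT and 56.9, 31.8, 33.6 and 22.5 CPM in TET1 KO. TET1 KO livers held both the highest and the lowest value. The means were 36.7 ± 7.61 (SD, n = 3) and 36.2 ± 14.6 CPM (SD, n = 4), with a log2 fold change of -0.02 (SE 0.27, adjusted p 0.972 in edgeR's quasi-likelihood test, 95% confidence interval -0.61 to 0.58). The sign of this value depended on which livers were kept and on the model, and leaving out 1 liver at a time gave -0.32 to 0.15.

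**Figure D3:**
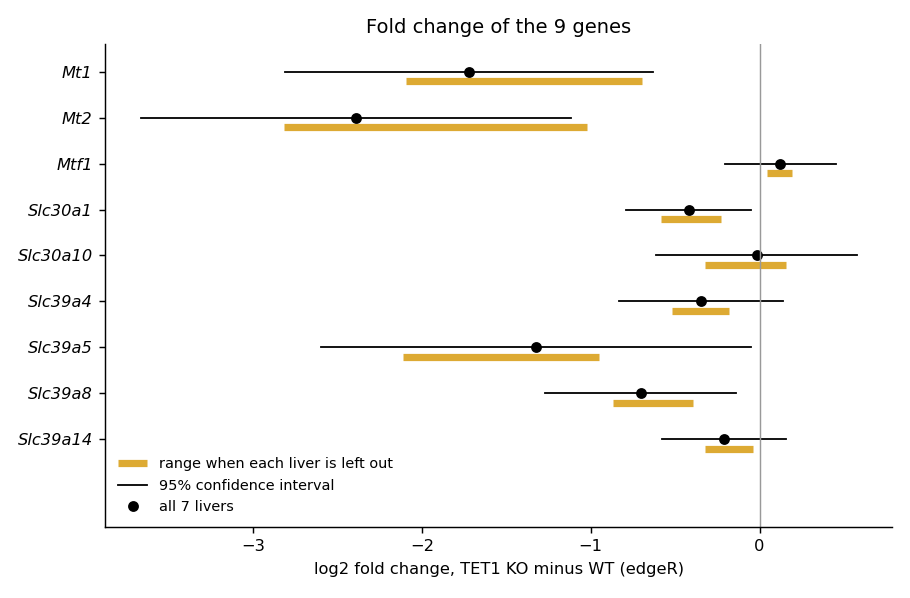
Log2 fold change, TET1 KO minus WT, of each of the 9 genes in edgeR (black points) with its 95% confidence interval (black lines) and the range when each of the 7 livers is left out in turn (yellow bars). The ranges reach from -2.10 to -0.69 for Mt1 and from -2.82 to -1.02 for Mt2, and that of Slc30a10 spans 0.

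Of the 4 ZIP members, Slc39a8 was lower in every TET1 KO liver without passing the adjusted threshold, and the others overlapped between the groups. Slc39a8 (ENSMUSG00000053897, chr3:135816882-135888572) encodes ZIP8, which takes up zinc and manganese. It measured 16.6, 29.6 and 17.8 CPM in WT and 7.95, 15.8, 14.3 and 14.4 CPM in TET1 KO. The highest TET1 KO liver and the lowest WT liver were close together, and WT replicate 2 stood apart from the other WT livers. WT replicate 2 was also the highest liver for Slc30a1 and for 25.0% of all genes tested, near the 25.6% of TET1 KO replicate 1, while the other livers were at 8.15% to 11.7%. Its part in the Slc30a1 and Slc39a8 values was not tested beyond the fits without it. The means were 21.3 ± 7.18 (SD, n = 3) and 13.1 ± 3.52 CPM (SD, n = 4), with a log2 fold change of -0.70 (SE 0.26, adjusted p 0.124 in edgeR's quasi-likelihood test and 0.0734 in DESeq2). The exact two-sided permutation test gave p = 0.0286, the smallest it allows. Without WT replicate 2 the log2 fold change was -0.40, with an adjusted p of 0.483 in edgeR's test.

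Slc39a14 (ENSMUSG00000022094, chr14:70303467-70351452) encodes ZIP14, the hepatic importer of zinc, manganese and iron, which interleukin-6 is known to induce. It measured 149, 159 and 220 CPM in WT and 134, 158, 140 and 177 CPM in TET1 KO. WT replicate 3 was the highest liver, as for Mt1 and Mt2, and the groups overlapped. The means were 176 ± 38.4 (SD, n = 3) and 152 ± 19.3 CPM (SD, n = 4), with a log2 fold change of -0.21 (SE 0.17, adjusted p 0.436 in edgeR's quasi-likelihood test, 95% confidence interval -0.58 to 0.16). Without WT replicate 3 it was -0.04.

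Slc39a4 (ENSMUSG00000063354, chr15:76612383-76618506) encodes ZIP4, best known for intestinal zinc uptake. It measured 25.2, 24.3 and 25.0 CPM in WT and 18.2, 21.9, 11.9 and 26.1 CPM in TET1 KO. The WT livers were nearly level, whereas the TET1 KO livers ran from below to above them. The means were 24.8 ± 0.477 (SD, n = 3) and 19.5 ± 6.04 CPM (SD, n = 4), with a log2 fold change of -0.35 (SE 0.22, adjusted p 0.330 in edgeR's quasi-likelihood test, 95% confidence interval -0.83 to 0.14). Leaving out 1 liver at a time gave -0.52 (without TET1 KO replicate 4) to -0.18 (without TET1 KO replicate 3).

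Slc39a5 (ENSMUSG00000039878, chr10:128395927-128401276) encodes ZIP5, a basolateral transporter of pancreatic and intestinal epithelium. It was low, with 44, 40 and 16 counts in WT and 24, 6, 2 and 12 counts in TET1 KO. These were 2.17, 1.66 and 0.883 CPM and 1.50, 0.423, 0.102 and 0.557 CPM. TET1 KO replicate 1 lay among the WT livers and the other TET1 KO livers were below them. Slc39a5 passed the filter on low counts through the WT livers, where it is high. The log2 fold change was -1.32 (SE 0.58, adjusted p 0.177 in edgeR's quasi-likelihood test), and it ranged from -2.11 without TET1 KO replicate 1 to -0.95 without TET1 KO replicate 3. Slc39a5 shares chromosome 10 with Tet1, 65.5 Mb away.

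Levels were compared between genes as CPM per kilobase of exon, with exon lengths from GENCODE M1 matched by gene identifier. That annotation is of an older mouse build (NCBIM37) than the counts, so the order between genes depends on lengths that the counting did not use. By WT mean, Mt1 was first at 40.8 ± 36.6 and Mt2 second at 21.4 ± 23.1 CPM per kilobase (SD, n = 3). The place of Mt2 rested on WT replicate 3, at 48.0 CPM per kilobase, against 9.29 and 7.01 in WT replicates 1 and 2, which were below Slc39a14 and Slc39a4 in the same livers. Without WT replicate 3 the mean of Mt2 was 8.15 CPM per kilobase, below those of Slc39a14 and Slc39a4, and that of Mt1 was 19.7, above that of Slc39a14 at 14.6. Over all 3 WT livers Slc39a14 was at 16.7 ± 3.64, Slc39a4 at 10.97 ± 0.211, Slc30a10 at 6.28 ± 1.30 and Slc30a1 at 5.96 ± 1.44 CPM per kilobase. Slc39a8 was at 2.78 ± 0.937, Mtf1 at 2.13 ± 0.180 and Slc39a5 at 0.733 ± 0.302 CPM per kilobase. The ranges of neighbours in this order overlapped for Mt1 and Mt2, Mt2 and Slc39a14, Slc30a10 and Slc30a1, and Slc39a8 and Mtf1, and did not overlap for the remaining neighbours. In TET1 KO livers Slc39a14 came first at 14.4 ± 1.83 and Mt1 second at 12.4 ± 5.25 CPM per kilobase (SD, n = 4), with overlapping ranges. Mt2 came sixth at 4.03 ± 0.899 CPM per kilobase, and its range overlapped that of Slc30a1, the gene above it in that order. With the longest transcript as the length, the WT mean of Slc39a14 was 34.4, above that of Mt2, and that of Slc39a8 was 5.07 CPM per kilobase. With that length and without WT replicate 3, Slc39a14 was first at 30.1 and Mt1 followed at 23.5 CPM per kilobase.

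**Figure D4:**
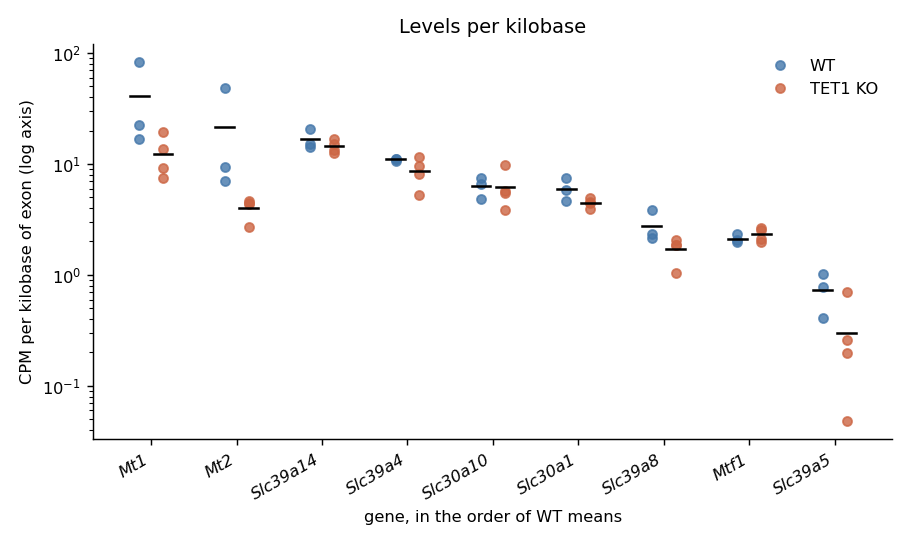
CPM per kilobase of exon on a log axis for the 9 genes in the order of their WT means, with 1 point for each liver (WT blue, TET1 KO orange) and the group mean as a black bar. The WT means of Mt1 and Mt2 are 40.8 and 21.4, and Mt2 lies below Slc39a14 and Slc39a4 in WT replicates 1 and 2 (9.29 and 7.01). In TET1 KO the mean of Slc39a14 is first at 14.4.

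The liver that was highest in Mt1, Mt2 and Slc39a14 was also highest in most acute phase genes, which hepatocytes make in response to interleukin-6 and other inflammatory signals. The acute phase genes named here, other than Il6ra, were chosen after their values were seen. WT replicate 3 was the highest of the 7 livers for 14 of 18 acute phase and IL-6 response genes, for 3 of the 9 members and for 10.1% of all genes tested. Saa1, encoding a serum amyloid A protein, was at 111, 77.9 and 2994 CPM in WT and 39.1, 582, 59.6 and 264 CPM in TET1 KO. Lcn2, encoding the siderophore-binding protein lipocalin-2, was at 30.6, 16.7 and 764 CPM in WT and 2.82, 152, 9.67 and 102 CPM in TET1 KO. Both genes were also higher in TET1 KO replicates 2 and 4 than in replicates 1 and 3. Mt1 had the same order of livers within each genotype as Saa1 and Lcn2, and so had Saa2, Orm2, Hp and Apcs. These were 6 of the 18 acute phase genes, and 1.14% of all genes tested had that order, Mt1 included. Mt2 had another order among the TET1 KO livers, which lay between 1.50 and 2.60 CPM, and none of the 18 genes shared it.

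Between the genotypes, 0 of the 18 acute phase genes passed edgeR's quasi-likelihood test at an adjusted p of 0.05, 3 of 18 had an unadjusted p under 0.05, and DESeq2 called 1, Il6ra, of the 16 for which it gave an adjusted p, which left out Saa1 and Saa2. Their median log2 fold change was -0.41, with negative values for 14. Il6ra, encoding the interleukin-6 receptor, had the smallest p, with a log2 fold change of 0.84 (adjusted p 0.0948 in edgeR and 0.0332 in DESeq2). The neutrophil markers S100a8 and S100a9 were likewise highest in WT replicate 3, at 13.3 and 16.9 CPM, against at most 2.54 and 5.49 CPM in the other livers. Csf3r, the remaining neutrophil marker tested, was highest in TET1 KO replicate 4 at 5.20 CPM, with 4.91 CPM in WT replicate 3. Ly6g had no counts outside WT replicate 3 and was at 0.221 CPM there. The summed level of the 5 neutrophil markers was 3.32 to 36.0 CPM in WT and 4.25 to 12.96 CPM in TET1 KO. The part of the acute phase and neutrophil genes in the metallothionein values was not tested.

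**Figure D5:**
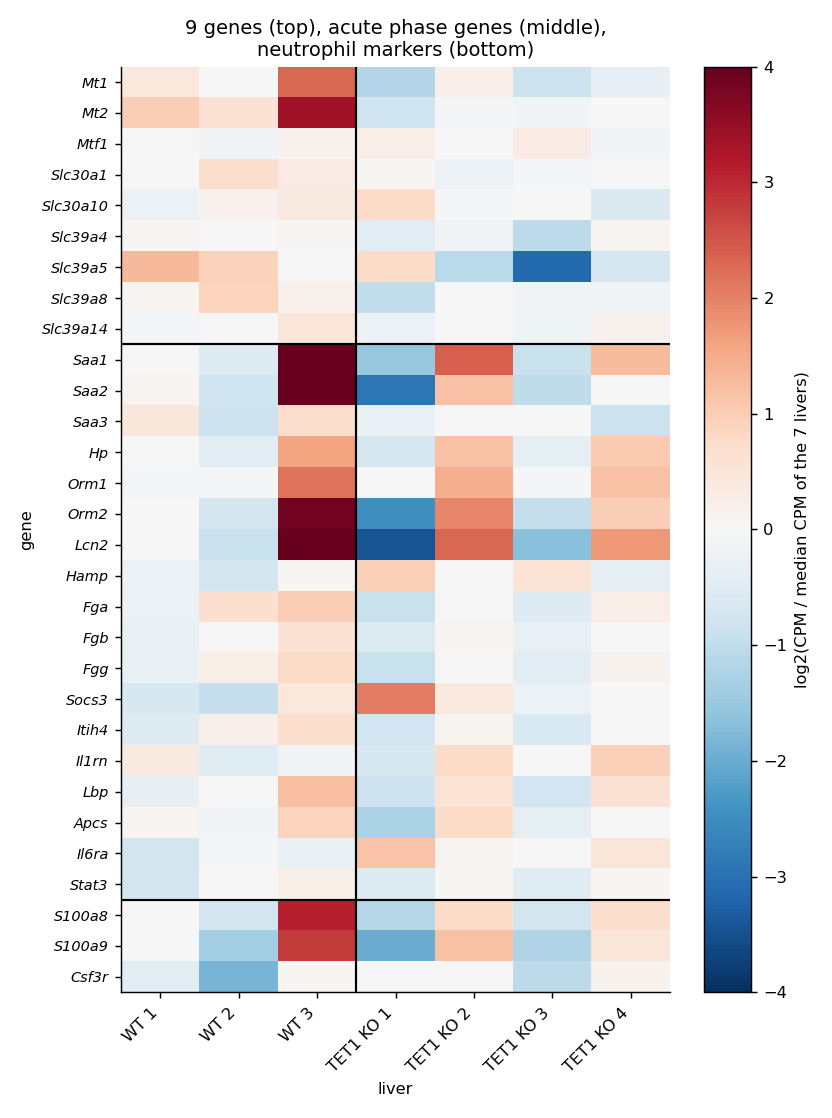
Colours give log2 of CPM over the median CPM of the 7 livers (capped at 4 in either direction) for the 9 genes, 18 acute phase genes and 3 tested neutrophil markers in each liver. WT replicate 3 is the highest liver in Mt1, Mt2, Slc39a14 and 14 of the 18 acute phase genes.

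Among the other ZnT transporters, 0 of 6 tested genes passed edgeR's quasi-likelihood test at an adjusted p of 0.05, with 2 at an unadjusted p under 0.05, 1 called by DESeq2 (Slc30a3) and a median log2 fold change of -0.22. The most abundant per kilobase were Slc30a5 (log2 fold change -0.26), which loads zinc into the secretory pathway, and Slc30a9 (log2 fold change 0.07), a mitochondrial transporter. In 3 of the 6 genes, Slc30a3 included, the groups did not overlap, against 22.5% of all genes. Slc30a4 (log2 fold change -0.42) and Slc30a7 (log2 fold change -0.34) were lower in every TET1 KO liver, with adjusted p of 0.195 and 0.169 in edgeR's test, and Slc30a3 was higher. These 3 genes are named after their values were seen. Slc30a3 was at 0.295, 0.124 and 0.331 CPM in WT and 1.31, 1.55, 0.767 and 0.789 CPM in TET1 KO. Its highest count was 22, and it passed the filter on low counts only through the TET1 KO livers, where it is high, so its test is not given as support. The counts above at an unadjusted p, in DESeq2 and of groups that did not overlap all include it. Slc30a2 and Slc30a8 had too few counts to be tested.

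Among the other ZIP transporters, 0 of 9 tested genes passed edgeR's quasi-likelihood test at an adjusted p of 0.05, with 2 at an unadjusted p under 0.05, 0 called by DESeq2 and a median log2 fold change of -0.05. Slc39a1, a widely expressed importer, was the most abundant per kilobase at 25.3 ± 2.22 in WT and 25.4 ± 4.30 in TET1 KO, with a log2 fold change of 0.01. Slc39a7, which releases zinc from the endoplasmic reticulum, followed with a log2 fold change of -0.13. The groups did not overlap for 2 of the 9 genes, a share near the 22.5% of all genes. Named after their values were seen, Slc39a11 was lower (log2 fold change -0.37, adjusted p 0.189 in edgeR's test) and Slc39a13 higher (0.42, adjusted p 0.147) in every TET1 KO liver. Of 5 other genes linked to MTF1, a list that shares a gene with the ZIP list, 0 passed at an adjusted or an unadjusted p of 0.05 in edgeR's test. DESeq2 called 0 of them. In 2 of the 5 every TET1 KO liver was below every WT liver, against 10.8% of all genes. The most abundant per kilobase, the selenoprotein genes Selenow and Selenoh, had log2 fold changes of 0.28 and -0.41.

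Other signals known to act on metallothionein genes were read through lists of their targets. Of 8 tested NRF2 targets of the oxidative stress response, 2 fell in TET1 KO by edgeR's quasi-likelihood test: Srxn1, encoding sulfiredoxin, by 1.08 on the log2 scale (adjusted p 0.0103) and Nqo1, encoding a quinone reductase, by 1.28 (adjusted p 0.0374), and DESeq2 called 5. For 7 of these 8 genes every TET1 KO liver was below every WT liver, against 10.8% of all genes. The remaining one, Osgin1, named after its values were seen, had a log2 fold change of 0.57 (unadjusted p 0.0396, adjusted p 0.169 in edgeR's test). Of 10 glucocorticoid-responsive genes 0 passed and 2 had an unadjusted p under 0.05. These 2 include Sult1e1, which passed the filter on low counts through the TET1 KO livers, where it is high. Its level was 0.041 to 0.492 CPM in WT and 0.557 to 1.00 CPM in TET1 KO. DESeq2 called 1, Klf9, of the 9 genes for which it gave an adjusted p. This glucocorticoid-induced transcription factor had the smallest p (log2 fold change 0.80, adjusted p 0.0801 in edgeR and 0.0196 in DESeq2). Of 12 copper-handling genes 0 passed, 2 had an unadjusted p under 0.05, DESeq2 called 0, and the copper exporter Atp7a had the smallest p (log2 fold change -1.16, adjusted p 0.0834 in edgeR).

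Genes whose pattern over the 7 livers was among the nearest to Mt1, by mean absolute difference of centred log2 CPM, were Syt12 (0.174), Mlkl (0.372), Dynlt1b (0.389) and Ly6c2 (0.395). Those nearest to Mt2 were Syt12 (0.384), Myom3 (0.437), Gm47939 (0.497), Dhrs9 (0.504) and Gm3756 (0.529). Mt1 and Mt2 differed from each other by 0.278 on this measure. Syt12, encoding a synaptotagmin, was at 1.28, 0.871 and 2.76 CPM in WT and 0.313, 0.986, 0.409 and 0.603 CPM in TET1 KO. It was therefore highest in WT replicate 3, and TET1 KO replicate 2 was its highest TET1 KO liver, as for Mt1. These neighbours were chosen over all genes for their likeness, and all of them lay below 10 CPM in every liver.

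Markers of other cell types were read beside the members that are known from such cells. Slc39a5 and Slc39a4 are expressed in pancreatic and intestinal epithelium. Of 8 pancreatic acinar markers, only Cela1 was abundant enough to be tested. It rose in TET1 KO (log2 fold change 1.85, adjusted p 0.00913, edgeR's quasi-likelihood test). Amy2a5 and Prss2 had 0 counts in every liver. Of 7 kidney and intestine markers, only Fabp2 was tested, with a log2 fold change of -0.78 (adjusted p 0.112 in edgeR and 0.0474 in DESeq2), and Umod, Slc12a1 and Slc34a1 had 0 counts in every liver. Of 5 tested cholangiocyte markers 0 passed the test. At an unadjusted p under 0.05 there were 4, against 26.3% of all genes, and DESeq2 called 3, against 9.88%. Both counts include Epcam, at 0.276 to 0.539 CPM in WT, which passed the filter on low counts through the TET1 KO livers, where it is high. Epcam and Krt19 were highest in TET1 KO replicate 4, at 4.87 and 6.68 CPM, against at most 0.986 and 1.69 CPM in the other livers. The summed level of the cholangiocyte markers was 29.7 to 37.8 CPM in WT and 46.1 to 68.0 CPM in TET1 KO. Of the macrophage and Kupffer cell, stellate and fibroblast, and endothelial markers, edgeR called 0 of 6 in each list. For these lists 0, 2 and 1 genes had an unadjusted p under 0.05, and DESeq2 called 0, 2 and 1. The part of these cell types in the member values was not tested.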

How the data were processed

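Liver RNA of 3 WT and 4 TET1 KO mice was sequenced from stranded libraries. The submitters' processing notes name Trimmomatic 0.36, GSNAP, featureCounts 1.5.3 and GRCm38. The authors deposited 1 table of raw counts per gene for each mouse, without normalization. The strand setting of the counting is not given in the sources used here.

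The members and gene lists were chosen with earlier results of these data known. Tables were joined by Ensembl identifier, 5 repeated identifiers were dropped, and filterByExpr kept 14754 genes. Main fits used edgeR 4.0.16 (quasi-likelihood test, TMM, Benjamini-Hochberg over all genes tested) in R 4.3.3, and DESeq2 1.42.0 was the alternative. Both were tested on simulated data. CPM are TMM-scaled. For single genes an exact permutation test, two-sided, compared mean CPM. Named genes were the members, called or the 2 most abundant genes of the zinc lists, up to 4 called genes (or that with the smallest p) of the other lists, markers beside a member, Tet1 and the 5 nearest neighbours of Mt1 and Mt2. 1 of these neighbours is not reported here. Apoa1, Epcam, Krt19, Osgin1, Slc30a3, Slc30a4, Slc30a7, Slc39a11, Slc39a13, Sult1e1 and the acute phase genes other than Il6ra were named after their values were seen. Neighbours used a prior count of 2. Counting limits cover counting error only.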

Additional observations from a re-analysis of the deposited data

How the results depend on the processing

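Over 15 alternatives per member (14 for Slc39a5, which could not be tested at a minimum of 10 counts in every library), the direction held for every member except Slc30a10. DESeq2 without WT replicate 3, and levels per kilobase without it, were chosen after seeing the data. Leaving out 1 liver at a time gave -2.10 to -0.69 for Mt1, -2.82 to -1.02 for Mt2 and -0.32 to 0.15 for Slc30a10. Slc30a10 was 0.12 with the replicate block and 0.095 in DESeq2 without WT replicate 3. Mt2 passed the adjusted threshold in DESeq2 (-2.41), with library size only (-2.46), without a filter on low counts (-2.40) and with the replicate block (-2.04). Mt1 passed without a filter (-1.74) and Slc39a8 with the replicate block (-0.76). The adjusted p of Mt1 ranged from 0.0451 to 0.247, that of Mt2 from 0.0218 to 0.129 and that of Slc39a8 from 0.0478 to 0.483.

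The number of members called was 0 in the edgeR fit, 1 in DESeq2, 1 with library size only, 2 without a filter, 2 with the replicate block and 0 to 1 with 1 liver left out. Over all genes, 129 were higher and 169 lower in the edgeR fit. These counts were 693 and 707 in DESeq2, 245 and 347 without a filter, 671 and 656 with the replicate block, and 368 and 456 in DESeq2 without WT replicate 3. With library size only, 312 were lower. With 1 liver left out, 16 to 427 were higher and 21 to 464 lower. The cause was not tested. The labels give replicate numbers and state no pairing of the mice. Deviations of same-numbered livers correlated at 0.21, -0.12 and -0.10 across genes, which are not independent replicates. Of the WT livers only replicate 1 correlated best with its own number. With 3 and 4 livers, whose deviations sum to 0 within each group, these values cannot decide whether the numbers pair the mice. The blocked values therefore rest on a shared number alone. Low counts limit the precision for Slc39a5 (2 to 44 counts), Slc30a3 (at most 22) and Tet1 (1 to 4).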
